A study of Mus musculus with 4 samples.

Results

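The Bcl2 family sets whether a cell lives or dies through the mitochondrial route of apoptosis. Its members Bcl2, Bcl2l1, Bcl2l2, Mcl1, Bax, Bak1, Bbc3, Bcl2l11, Pmaip1 and Hrk were followed here by gene symbol, 10 of the 32286 genes in the count matrices, and each symbol matched 1 row. They were measured by single-cell RNA sequencing of tdTomato-positive cells sorted from mouse cerebella at E15.5 (embryonic day). En1/2 CKO embryos carried En1lox/lox and En2lox/lox together with Ptf1aCre/+ and the reporter R26LSL-tdT/+. Control embryos carried Ptf1aCre/+ and R26LSL-tdT/+ without the floxed alleles, so that both groups had 1 Cre allele and 1 reporter allele. Cre is driven from Ptf1a, which gives GABAergic neurons of the cerebellum their identity, and En1 and En2 encode the Engrailed homeobox proteins. Pools of embryos, of unstated size, gave 2 libraries per genotype, and p-values for genotype measure the spread between these 4 pools. Tests between classes had the library as a block, so their p-values measure how class differences vary from pool to pool. Animals that carried the floxed alleles without Cre were not analysed here.

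In the mitochondrial route, the effectors Bax and Bak1 perforate the outer mitochondrial membrane and release cytochrome c, which starts the caspase cascade. The guardians Bcl2, Bcl2l1 (Bcl-xL), Bcl2l2 (Bcl-w) and Mcl1 hold the effectors in check, and the BH3-only proteins Bbc3 (PUMA), Bcl2l11 (BIM), Pmaip1 (NOXA) and Hrk (Harakiri) bind and block the guardians. Developing neurons often die by this route when they lack trophic support. Much of the control of the family acts on protein level, location and binding, which transcript counts do not show.

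In GRCm38 (mm10), Bcl2 is at chr1:106538178-106714274 and Hrk at chr5:118164648-118189478, on the chromosomes of En1 (chr1:120602418-120607992) and En2 (chr5:28165694-28172166). Bcl2l1 is at chr2:152780668-152831728, Bcl2l11 at chr2:128126038-128162547, Mcl1 at chr3:95658788-95663176, Bbc3 at chr7:16308393-16318205, Bax at chr7:45461697-45466898, Bcl2l2 at chr14:54883377-54888234 and Bak1 at chr17:27019810-27029009. Only the mutants carried floxed alleles, so that a genotype effect on Bcl2 or Hrk cannot be told apart from one of DNA carried along with the floxed allele. Hrk lies much further from En2 than Bcl2 from En1, and how much DNA came with either allele is not known here. The promoters of 4 members on whose levels by cell class the results turn, Bcl2, Hrk, Bak1 and Bbc3, are shown for their base composition, 250 bases before to 50 bases after a RefSeq start, with the GC box (GGGCGG or its complement CCGCCC, the motif of Sp1-type factors) in capitals.
Bcl2, GRCm38.p6 chr1:106714241-106714540, minus strand: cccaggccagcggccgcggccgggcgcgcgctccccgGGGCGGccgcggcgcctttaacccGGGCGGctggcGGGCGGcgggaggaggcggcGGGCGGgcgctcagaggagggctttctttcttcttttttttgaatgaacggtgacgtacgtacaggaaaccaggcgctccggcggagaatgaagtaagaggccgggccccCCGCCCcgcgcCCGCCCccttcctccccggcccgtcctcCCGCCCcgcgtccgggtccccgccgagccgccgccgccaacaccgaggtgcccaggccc
Hrk, GRCm38.p6 chr5:118169514-118169813, plus strand: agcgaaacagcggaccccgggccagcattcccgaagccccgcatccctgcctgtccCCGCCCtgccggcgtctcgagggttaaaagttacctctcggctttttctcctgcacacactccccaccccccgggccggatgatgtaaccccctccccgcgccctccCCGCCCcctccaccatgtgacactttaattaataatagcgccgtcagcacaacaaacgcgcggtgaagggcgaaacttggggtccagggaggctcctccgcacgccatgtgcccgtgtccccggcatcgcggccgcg
Bak1, GRCm38.p6 chr17:27028578-27028877, minus strand: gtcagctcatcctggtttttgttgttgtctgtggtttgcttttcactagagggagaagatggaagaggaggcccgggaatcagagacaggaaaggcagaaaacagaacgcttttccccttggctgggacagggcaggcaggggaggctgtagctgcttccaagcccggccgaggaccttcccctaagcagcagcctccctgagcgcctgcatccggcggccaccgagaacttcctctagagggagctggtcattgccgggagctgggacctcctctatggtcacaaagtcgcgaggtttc
Bbc3, GRCm38.p6 chr7:16309333-16309632, plus strand: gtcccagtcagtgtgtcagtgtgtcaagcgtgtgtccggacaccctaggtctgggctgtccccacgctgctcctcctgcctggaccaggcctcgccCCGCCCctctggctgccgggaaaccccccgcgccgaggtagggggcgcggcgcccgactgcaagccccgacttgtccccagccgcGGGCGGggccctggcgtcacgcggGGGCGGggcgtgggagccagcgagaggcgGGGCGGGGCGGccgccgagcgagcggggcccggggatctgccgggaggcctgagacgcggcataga
The Bcl2 window held 7 GC boxes at a GC content of 76.0%, the Bbc3 window shown 5 (overlapping matches counted) at 76.0%, and the Hrk window 2 at 65.7%. The Bak1 window held 0 at 58.3%. Bbc3 has 2 further RefSeq starts, whose windows held 4 GC boxes at 74.7% and 7 at 78.0%, and the first start is the one shown. Of 32851 RefSeq promoters of this length, 35.7% hold at least 1 GC box on either strand. None of these 4 windows held the E-box CAGCTG, which 16.3% of promoters hold. These matches describe the letters of the windows only.

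After filtering, 4893 and 7300 En1/2 CKO cells and 9487 and 1134 control cells were kept, with medians of 2173, 1110, 1186 and 2432 UMIs (unique molecular identifiers, each standing for 1 captured transcript). Control replicate 2 stood apart, with a median mitochondrial share of 13.4% over all its barcodes and 24.6% of barcodes kept, against 59.7%, 63.4% and 86.3% in the others. Control replicate 1 stood apart in Malat1, a nuclear RNA, at 84964 CPM (the usual depth-scaled unit, with each sum of UMIs brought to the same total) against 31391 to 33327 CPM elsewhere. No pair of libraries shared more than 32 cell barcodes. The cells formed 18 clusters, and 8 classes named from marker genes had at least 20 cells in every library. They include interneuron-like (5762 cells, Pax2 at 528 to 791 CPM), Ptf1a intermediate progenitor-like (2997, Ptf1a at 87.5 to 98.2 CPM), radial progenitor-like (3389, Hes5 at 364 to 641 CPM), Purkinje-like (1832, Calb1 at 29.3 to 81.1 CPM) and microglia-like cells (343, Csf1r at 1422 to 1593 CPM). The Purkinje marker Skor2 reached 0 to 17.1 CPM in Purkinje-like cells, of which control replicate 2 held 27. TdTom, the reporter that the sort selected, stood at 452 to 1193 CPM in microglia-like and 493 to 664 CPM in interneuron-like cells, so that reporter transcripts were not limited to neurons. A class described as oligodendrocyte lineage-like (1774 cells) was also led by astroglial genes such as Bcan. The members were left out of the genes used for clustering.

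**Figure D1:**
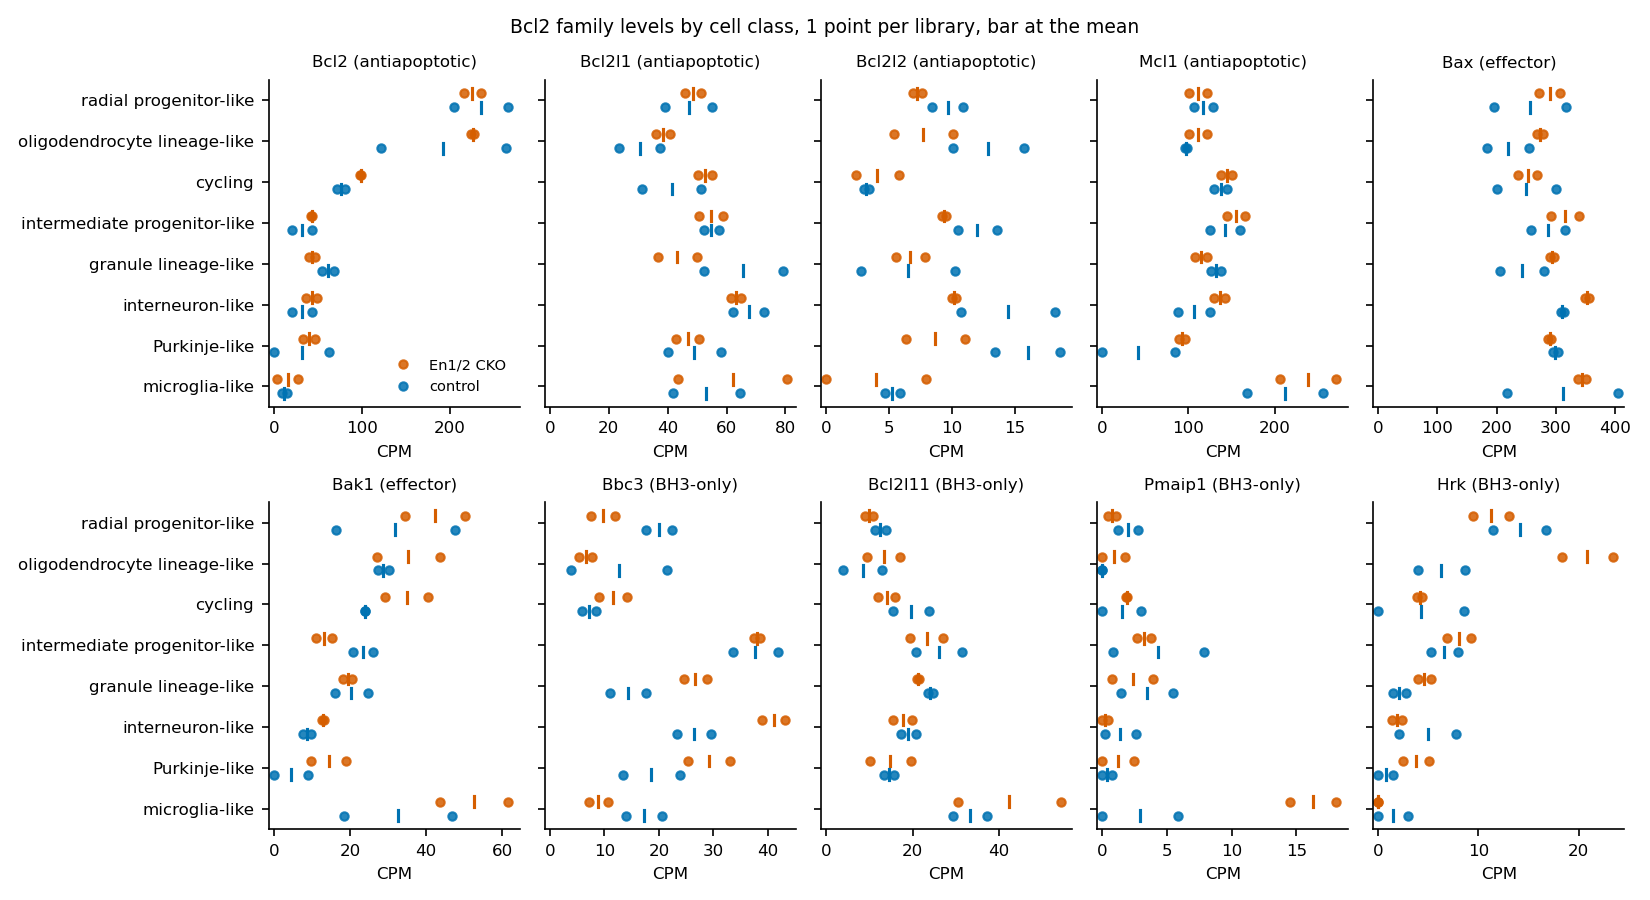
Level of each member (x axis, CPM of summed UMIs) in 8 cell classes, 1 point per library with En1/2 CKO above control and a bar at the mean. Bcl2 and Hrk are highest in radial progenitor-like and oligodendrocyte lineage-like cells, the latter a class of mixed, largely astroglial markers. Bbc3 is highest in intermediate progenitor-like and interneuron-like cells, and the Bax values of classes next to each other in mean level overlap.

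Among the guardians, Bcl2 varied most clearly with cell class. Radial progenitor-like cells held 215 and 235 CPM in En1/2 CKO and 266 and 204 CPM in control libraries. The oligodendrocyte lineage-like class, with its largely astroglial markers, held 228 and 224 against 263 and 121 CPM. Cycling cells followed with 98.0 and 99.4 CPM in En1/2 CKO and 80.3 and 71.7 CPM in control libraries. Intermediate progenitor-like cells, which stand between radial progenitors and neurons in the Ptf1a lineage, had 42.5 and 43.8 CPM in En1/2 CKO and 43.9 and 20.9 CPM in control libraries, close to the 37.0 and 48.8 against 43.9 and 20.8 CPM of interneuron-like cells. The libraries of radial and intermediate progenitor-like cells did not overlap. That pair of classes was chosen after the values were seen and was not tested.

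Bcl2 was also uneven inside the progenitors. In cluster 1 of the radial class it stood at 264 and 269 CPM in En1/2 CKO and 299 and 234 CPM in control libraries, and in cluster 4 at 162 and 197 against 250 and 176 CPM. In intermediate cluster 0 it was at 56.6 and 62.6 CPM in En1/2 CKO and 47.4 and 34.1 CPM in control libraries, and in intermediate cluster 11 at 29.1 and 26 CPM against 30.5 and 0 CPM. Every library thus had less Bcl2 in cluster 11 than in cluster 0. When each cell was thinned to 1000 UMIs, 18.8% and 20.2% of En1/2 CKO and 22.5% and 19.4% of control radial progenitor-like cells carried a Bcl2 UMI, before thinning 36.5% and 31.2% against 31.0% and 32.1%. In thinned microglia-like cells the shares were 0% and 2.22% in En1/2 CKO and 0% and 1.64% in control libraries (0 of 60, 3 of 135, 0 of 78 and 1 of 61 cells). D630008O14Rik overlaps Bcl2 on the other strand, and the use of strand in counting is not given in the sources used here.

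Set against all progenitor-like cells, the radial and intermediate classes together with a radial share of 49.7% to 54.9%, Bcl2 was lower in both neuron classes. It averaged 37.6 ± 12.2 CPM in interneuron-like and 131 ± 27.1 CPM in progenitor-like cells (SD, n = 4 libraries), a log2 fold change of -1.66 (SE 0.14, edgeR quasi-likelihood test with Benjamini-Hochberg adjustment, adjusted p = 2.34e-11). In Purkinje-like cells it averaged 35.6 ± 26.8 CPM, -1.51 on the log2 scale (SE 0.17, edgeR adjusted p = 9.39e-09). The values were lower in 4 of 4 libraries in both contrasts. In sums of a class, fewer transcribing cells and fewer transcripts per cell cannot be told apart. In Purkinje-like cells of control replicate 2, 0 Bcl2 UMIs were counted, where 3 counts are worth 40.2 CPM.

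Of the members, 9 of 10 passed the filter on low counts in the contrasts among progenitor-like cells and the 2 neuron classes, all but Pmaip1. In interneuron-like minus progenitor-like cells edgeR called 6, of which 3 were higher and 3 lower, against 52.8% of all 11756 genes tested. In Purkinje-like minus progenitor-like cells it called 4, each lower, against 53.1% of all genes. Neither count stands far from the share of genes that differ between these classes at large. The median log2 fold change of the tested members was 0.09 in interneuron-like and -0.16 in Purkinje-like cells, and that of all genes 0.00 and -0.03.

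**Figure D2:**
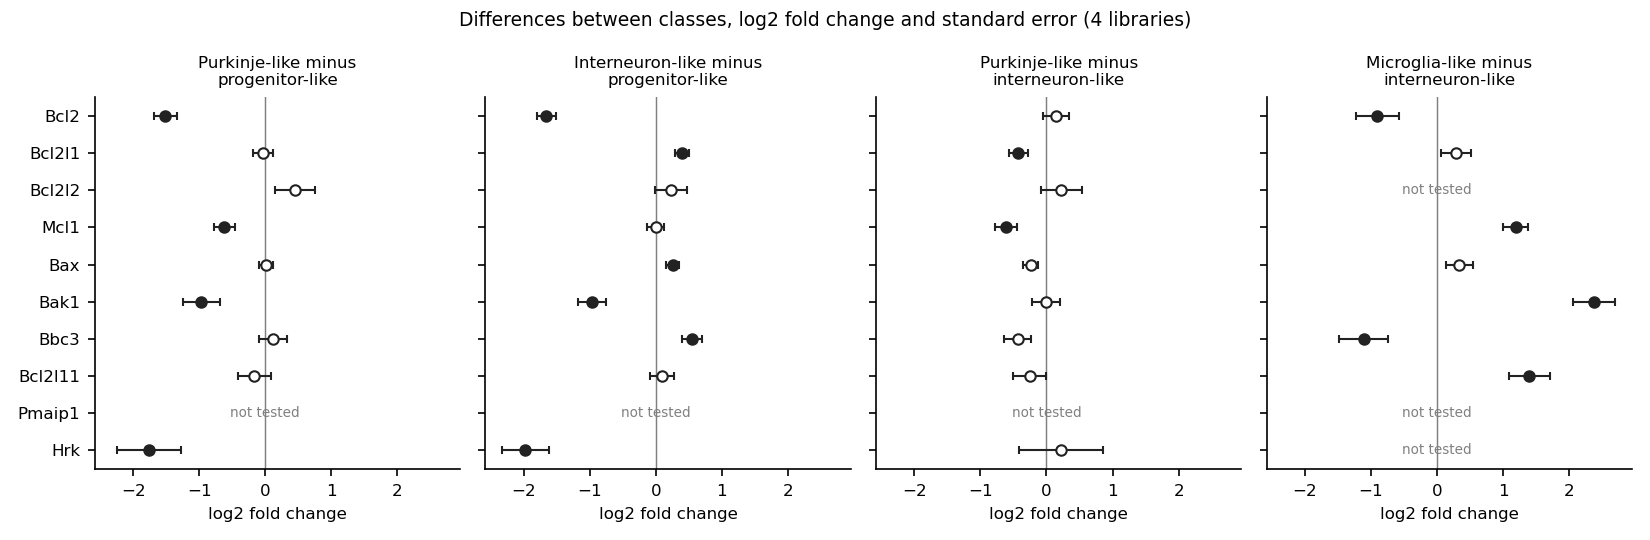
Log2 fold change of each tested member (x axis) in the contrasts between cell classes, with SE as error bars. Filled points have an edgeR adjusted p under 0.05. Bcl2, Bak1 and Hrk lie left of 0 in both neuron classes against progenitor-like cells, and Bak1, Bcl2l11 and Mcl1 lie right of 0 in microglia-like against interneuron-like cells.

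Bcl2l1, which encodes the guardian Bcl-xL of postmitotic neurons, ran the other way in interneuron-like cells. It stood at 65.0 and 61.4 CPM in En1/2 CKO and 72.8 and 62.3 CPM in control libraries there, each above every progenitor-like value, and averaged 65.4 ± 5.16 against 51.6 ± 4.28 CPM (log2 fold change 0.40, SE 0.11, edgeR adjusted p = 0.004). Purkinje-like cells averaged 47.9 ± 8.07 CPM, lower than interneuron-like cells by 0.43 on the log2 scale (SE 0.15, edgeR adjusted p = 0.0327), a call kept in 4 of 13 alternative settings. Against progenitor-like cells the Purkinje-like difference was -0.03, with a 95% interval of -0.33 to 0.27. Bcl2 and Bcl2l1 therefore moved in opposite directions between progenitor-like and interneuron-like cells.

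Mcl1, a short-lived guardian, averaged 67.4 ± 45.2 CPM in Purkinje-like and 133 ± 4.71 CPM in progenitor-like cells (log2 fold change -0.62, SE 0.16, edgeR adjusted p = 0.00157). The Purkinje-like values were 89.2 and 96.3 CPM in En1/2 CKO and 84.0 and 0 CPM in control libraries, where the 0 again comes from the 27 cells of control replicate 2. Each lay below its own library's interneuron-like value, at 142 and 130 against 125 and 88.2 CPM (log2 fold change -0.61, SE 0.16, edgeR adjusted p = 0.00528). In that contrast of Purkinje-like minus interneuron-like cells, edgeR called 2 of 9 tested members, Bcl2l1 and Mcl1, both lower, against 22.4% of all genes. Bcl2l2, which encodes Bcl-w, was sparse, at 6.34 to 18.6 CPM in Purkinje-like and 9.96 to 18.2 CPM in interneuron-like cells, and no contrast between these classes called it.

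Of the effectors, Bax was even. Purkinje-like cells held 287 and 293 CPM in En1/2 CKO and 303 and 295 CPM in control libraries, a difference from progenitor-like cells of 0.02 on the log2 scale with a 95% interval of -0.20 to 0.24. Interneuron-like cells held 350 and 356 CPM in En1/2 CKO and 309 and 314 CPM in control libraries and averaged 332 ± 24.2 CPM against 288 ± 43.8 CPM in progenitor-like cells. That difference of 0.26 (SE 0.10, edgeR adjusted p = 0.0273) held in 6 of 13 alternatives, and the libraries of the classes overlapped.

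Bak1, the second effector, was lower in both neuron classes. Interneuron-like cells had 13.3 and 12.7 CPM in En1/2 CKO and 9.78 and 7.78 CPM in control libraries, with a mean of 10.9 ± 2.57 against 26.7 ± 8.49 CPM in progenitor-like cells (log2 fold change -0.96, SE 0.21, edgeR adjusted p = 0.000248). Purkinje-like cells averaged 9.43 ± 7.77 CPM (log2 fold change -0.96, SE 0.28, edgeR adjusted p = 0.00435). Within the progenitors, radial cells held 34.5 and 50.3 CPM in En1/2 CKO and 16.3 and 47.6 CPM in control libraries, and intermediate cells 11.1 and 15.3 against 20.8 and 26.2 CPM. Control replicate 1 was the one library with no more Bak1 in radial than in intermediate progenitor-like cells. Bak1 overlaps Ggnbp1 on the other strand.

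The BH3-only genes divided by class. Bbc3, a p53 target, stood highest in intermediate progenitor-like and interneuron-like cells, whose values overlapped. Intermediate progenitor-like cells held 37.4 and 38.5 CPM in En1/2 CKO and 33.5 and 41.8 CPM in control libraries. Interneuron-like cells held 38.9 and 43.1 CPM in En1/2 CKO, above the intermediate values there, and 29.6 and 23.4 CPM in control libraries, below them, and radial progenitor-like cells had 7.63 and 11.9 against 17.6 and 22.4 CPM. Radial and intermediate progenitor-like cells did not overlap. That comparison was picked after its values were seen and was not tested. Against all progenitor-like cells, Bbc3 averaged 33.7 ± 8.95 CPM in interneuron-like and 27.0 ± 3.73 CPM in progenitor-like cells (log2 fold change 0.55, SE 0.15, edgeR adjusted p = 0.00355), higher in 3 of 4 libraries and kept in 9 of 13 alternatives. With cells thinned to 1000 UMIs the difference was 0.20 (edgeR adjusted p = 0.536).

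The 2 clusters of the intermediate class differed in Bbc3. Cluster 11 held 57.7 and 61.7 CPM in En1/2 CKO and 45.8 and 54.2 CPM in control libraries, and cluster 0 held 16.1 and 14.1 against 30.3 and 34.1 CPM. Within cluster 0 both En1/2 CKO libraries thus lay below both controls, and within cluster 11 both lay above. Cluster 11 made up 42.5% and 37.7% of the class in En1/2 CKO and 12% and 35.3% in control libraries. Neither cluster was tested by genotype, and its cells were grouped from the same libraries. Such separation of 2 libraries from 2 is frequent even where genotype has no effect. Cluster 11, with the least Bcl2 of the progenitor clusters, was the one with the most Bbc3.

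**Figure D3:**
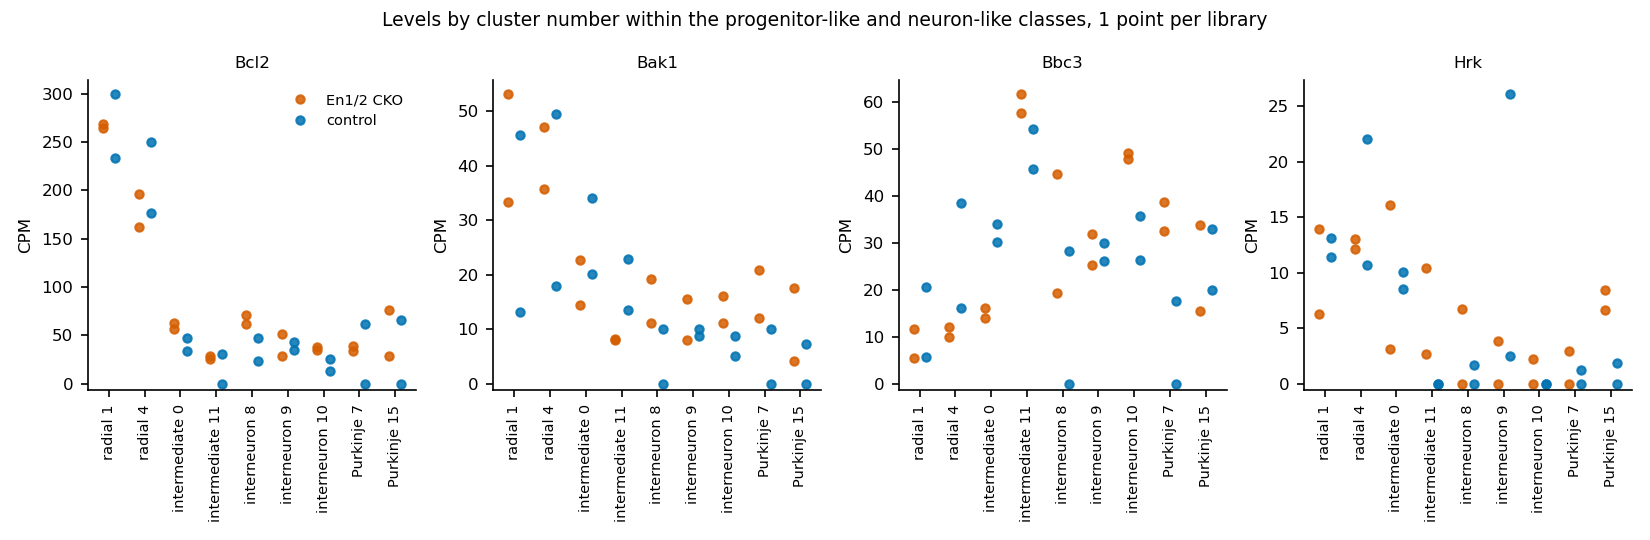
Level of Bcl2, Bak1, Bbc3 and Hrk (CPM) in single clusters of the radial (1, 4), intermediate (0, 11), interneuron-like (8, 9, 10) and Purkinje-like (7, 15) classes, with 1 point per library. Bcl2 is high in clusters 1 and 4, and Bbc3 is higher in cluster 11 than in cluster 0 in each library.

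Hrk, a BH3-only gene known from neurons deprived of growth factor, was lower in both neuron classes than in progenitor-like cells. It averaged 3.40 ± 2.95 CPM in interneuron-like and 9.92 ± 1.33 CPM in progenitor-like cells (log2 fold change -1.97, SE 0.35, edgeR adjusted p = 2.18e-05) and 2.25 ± 2.13 CPM in Purkinje-like cells (log2 fold change -1.76, SE 0.48, edgeR adjusted p = 0.00289). These levels are close to single counts, with 305 Hrk UMIs in all cells. Of these, 145 lay in progenitor-like, 20 in interneuron-like and 8 in Purkinje-like cells. Within either neuron class alone, Hrk did not pass the low-count filter of the genotype tests. A gene that passes the filter through progenitor-like sums can hardly be called in the other direction, so these 2 calls carry little weight. After thinning, 2.04% and 1.10% of En1/2 CKO and 1.31% and 1.55% of control radial progenitor-like cells carried one, and 0.16% and 0.15% of En1/2 CKO and 0.19% and 0% of control interneuron-like cells, where 0 of 150 cells allows up to 2.00%. Before thinning the radial shares were 3.17% and 1.85% in En1/2 CKO and 1.68% and 3.57% in control libraries. In microglia-like cells, which should lack Hrk, 0 and 0 UMIs were counted in En1/2 CKO and 1 and 0 UMIs in control libraries. Their thinned cells held 0, which allows shares of up to 5.00% and 2.22% in En1/2 CKO and 3.85% and 4.92% in control libraries, so that shares of cells do not set the radial level above background at this depth. In summed counts, radial progenitor-like cells stood at 13.1 and 9.48 CPM in En1/2 CKO and 11.5 and 16.8 CPM in control libraries. Where 0 UMIs were counted in microglia-like cells, 3 counts were worth 10.9 and 3.97 CPM in En1/2 CKO libraries and 13.9 CPM in control replicate 2. Each lay below the radial value of its library, but the exact Poisson 95% upper limit of 0 UMIs is more than 3 counts. That limit lay above the radial value in En1/2 CKO replicate 1 and control replicate 2, and below it in En1/2 CKO replicate 2. In control replicate 1, the 1 UMI (2.93 CPM) has an exact Poisson 95% upper limit of 16.3 CPM, above the radial value. In oligodendrocyte lineage-like cells Hrk stood at 23.4 CPM (26 UMIs, exact Poisson 95% interval 15.3 to 34.3) and 18.3 CPM (31 UMIs, 12.4 to 26) in En1/2 CKO libraries. In control libraries it stood at 8.63 CPM (6 UMIs, 3.17 to 18.8) and 3.92 CPM (1 UMI). That class was not tested by genotype, and these intervals cover counting error only.

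Bcl2l11, which encodes BIM, the BH3-only protein induced by FoxO and JNK signalling in neurons, stood at 27.1 and 19.4 CPM in En1/2 CKO and 20.8 and 31.4 CPM in control intermediate progenitor-like cells. Interneuron-like cells had 19.9 and 15.48 CPM in En1/2 CKO and 17.3 and 20.8 CPM in control libraries. It differed from progenitor-like cells by 0.09 (95% interval -0.28 to 0.46) in interneuron-like and by -0.16 (-0.66 to 0.33) in Purkinje-like cells. Pmaip1, a second p53 target on chromosome 18, had 88 UMIs in all cells, 25 of them in intermediate progenitor-like and 3 each in interneuron-like and Purkinje-like cells, too few for the contrasts.

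Microglia-like cells, an unrelated lineage within the sort, differed from interneuron-like cells in 5 of the 7 members tested, against 64.3% of all genes. Bak1 averaged 42.7 ± 17.8 CPM in microglia-like and 10.9 ± 2.57 CPM in interneuron-like cells (log2 fold change 2.38, SE 0.32, edgeR adjusted p = 3.4e-13). Bcl2l11 (log2 fold change 1.40, SE 0.31) and Mcl1 (1.19, SE 0.19) were also higher, with edgeR adjusted p-values of 2.05e-05 and 3.24e-09. Bcl2 (log2 fold change -0.90, SE 0.33) and Bbc3 (-1.11, SE 0.37) were lower, with edgeR adjusted p-values of 0.00995 and 0.00447, and the Bcl2 call held in 7 of 12 alternatives. Pmaip1 reached 18.1 and 14.6 CPM in En1/2 CKO and 5.87 and 0 CPM in control microglia-like cells on 18 UMIs. Of all 9022 genes tested, 3076 were higher in microglia-like cells and 2729 lower. Of 11 tested genes of the other Bcl2 family 7 were higher and 1 lower, and of 18 caspases and inhibitors 10 and 3. Of 8 death receptor genes 6 were higher and 2 lower, and of 15 p53 response genes 4 and 4. Of 14 JNK, FoxO and stress genes 5 were higher and 7 lower, and of 15 genes whose products bind the family 4 and 3. Genes nearly absent from interneuron-like cells, such as Bcl2a1b, pass the low-count filter only through microglia-like sums. Such genes could only be called higher. Bcl2a1b, a haematopoietic relative of Bcl2, averaged 220 ± 39.3 CPM in microglia-like and 0.0569 ± 0.114 CPM in interneuron-like cells, and the effector relative Bok averaged 3.13 ± 1.39 against 44.2 ± 4.71 CPM (log2 fold change -3.68, SE 0.52, edgeR adjusted p = 4.25e-12).

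The series title concerns the survival of Purkinje cells and interneurons, and the 2 genotypes were compared in all cells, in each neuron class and in progenitor-like cells. En2 was lower in both En1/2 CKO libraries than in both controls in each sum, for example at 37.8 ± 15 CPM in En1/2 CKO and 128 ± 1.27 CPM in control interneuron-like cells (SD, n = 2 each), a log2 fold change of -1.81. En1 differed by -0.57 in all cells, 0.37 in Purkinje-like, -0.67 in interneuron-like cells and -0.12 in progenitor-like cells. Neither passed edgeR after adjustment, and the counted 3′ tags may lie outside the deleted part of either gene, so they do not check the genotype.

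**Figure D4:**
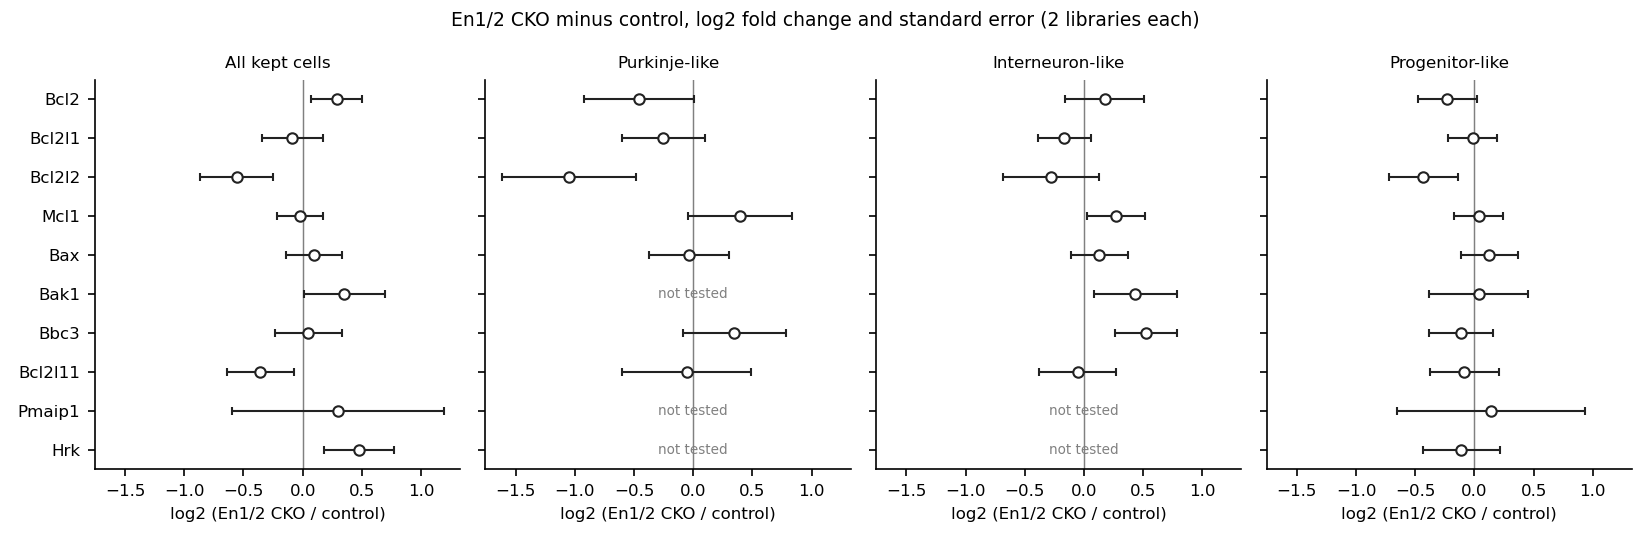
Log2 fold change of each tested member between En1/2 CKO and control libraries (x axis, positive higher in En1/2 CKO) in 4 sums of cells, with SE as error bars. All points are open, since no member passed edgeR.

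No member passed in any of these sums. EdgeR called 0 of the 10 members tested in all cells, 0 of 7 in Purkinje-like, 0 of 8 in interneuron-like cells and 0 of 10 in progenitor-like cells, and 0 had an unadjusted p under 0.05. DESeq2 called 0 members as well. The background was as low, with 0.0% of all genes called in all cells, 0.0223% in Purkinje-like, 0.0% in interneuron-like cells and 0.0% in progenitor-like cells. The smallest adjusted p of a member was 0.955 in all cells and 0.804 in progenitor-like cells.

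The guardians showed these sizes. Bcl2 stood at 96.2 and 103 CPM in En1/2 CKO and 88.6 and 67.3 CPM in control libraries over all cells, a difference of 0.29 (95% interval -0.26 to 0.84) without overlap. In progenitor-like cells it was at 116 and 129 CPM in En1/2 CKO and 170 and 110 CPM in control libraries (-0.23, interval -0.84 to 0.38). Without control replicate 2 that difference was -0.45, in a fit whose lone control is assumed to vary like the mutants. For Mcl1 in Purkinje-like cells the difference without control replicate 1 was 8.71, where the one control library left has 0 UMIs in 27 cells. Bcl2l2 was lower in both En1/2 CKO libraries in each of the 4 sums, and the sums share cells. In Purkinje-like cells it was at 11 and 6.34 CPM in En1/2 CKO and 18.6 and 13.4 CPM in control libraries (-1.05, interval -2.27 to 0.17). With 2 libraries per genotype, values without overlap are frequent even where genotype has no effect. The share of all genes that separate in this way was not counted. For Mcl1 the interval was -0.46 to 0.53 in progenitor-like cells, and for Bcl2l1 -0.70 to 0.37 in interneuron-like cells, so that 2-fold changes lay outside these intervals. In Purkinje-like cells the intervals were wider, at -1.46 to 0.54 for Bcl2, -1.01 to 0.51 for Bcl2l1 and -0.55 to 1.35 for Mcl1. Each of these includes a 2-fold change in 1 direction.

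Among effectors and BH3-only genes, Bbc3 in interneuron-like cells had the smallest unadjusted p. It averaged 41.0 ± 3.01 CPM in En1/2 CKO and 26.5 ± 4.39 CPM in control libraries, a difference of 0.52 with a 95% interval of -0.10 to 1.14 that includes 0. Cluster 10, the interneuron-like cluster with 47.9 and 49.2 CPM of Bbc3 in En1/2 CKO and 35.8 and 26.3 CPM in control libraries, made up 37.2% and 22.0% of the class in En1/2 CKO and 3.17% and 52.2% in control libraries. The part of this make-up in the difference was not tested. In Purkinje-like cells Bbc3 was at 33.0 and 25.3 CPM in En1/2 CKO and 23.8 and 13.4 CPM in control libraries (0.35, interval -0.59 to 1.29). Bax differed by 0.13 (interval -0.44 to 0.70) in interneuron-like and -0.04 (-0.76 to 0.69) in Purkinje-like cells. Hrk averaged 7.11 ± 0.503 CPM in En1/2 CKO and 4.89 ± 0.0118 CPM in control libraries over all cells (0.48, interval -0.29 to 1.24), and -0.11 (-0.91 to 0.69) in progenitor-like cells.

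The genotype effect was also compared between Purkinje-like and interneuron-like cells. EdgeR called 0 of 8 members for a difference in effect, with 0 at an unadjusted p under 0.05 and 0 by DESeq2, against 0.218% of all genes. The difference between the 2 effects was -0.57 for Bcl2 (SE 0.35, 95% interval -1.25 to 0.11) and -0.89 for Bcl2l2 (SE 0.70, interval -2.26 to 0.48).

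Barcodes over the mitochondrial limit, which the filter removed, were set beside the kept cells, since damaged cells often lie there. They numbered 1405 and 1111 in En1/2 CKO and 14 and 585 in control libraries. Of 9 members tested edgeR called 2, against 46.3% of all genes. Bak1 was lower in these barcodes in every library, though the 14 barcodes of control replicate 1 carry little weight for so sparse a gene. It averaged 11.6 ± 9.58 CPM over the limit and 23.4 ± 6.30 CPM in kept cells (log2 fold change -0.98, SE 0.27, edgeR adjusted p = 0.00147). Bcl2l2 was higher by 0.75 (SE 0.30, edgeR adjusted p = 0.0295) but only in the En1/2 CKO libraries. Neither call held when DESeq2 was used, nor without either En1/2 CKO library. Class make-up was not matched in this comparison: Unc5c, which is high in interneuron-like cells, averaged 552 ± 80.7 CPM over the limit and 224 ± 55.8 CPM in kept cells.

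The 6 wider lists place the members within the pathway. Of all 11756 genes tested in Purkinje-like minus progenitor-like cells, 53.1% were called, 3094 higher and 3152 lower. In Purkinje-like minus progenitor-like cells, 2 of 9 tested genes of the other Bcl2 family were higher and 4 lower, 6 of 18 caspases and their inhibitors were higher and 6 lower, and 3 of 19 p53 response genes were higher and 7 lower. Of 15 JNK, FoxO and stress genes 7 were higher and 4 lower, of 8 death receptor genes 3 and 4, and of 16 genes whose products bind the family 5 and 7. Bok averaged 52.9 ± 5.12 CPM in Purkinje-like and 23.8 ± 7.25 CPM in progenitor-like cells (log2 fold change 1.06, SE 0.16, edgeR adjusted p = 2.37e-06). Bcl2l12 averaged 7.53 ± 5.47 against 32.9 ± 5.92 CPM (-1.78, SE 0.26, edgeR adjusted p = 7.68e-07). Trp53, which encodes p53, averaged 49.0 ± 6.53 against 100 ± 21.6 CPM (-0.93, SE 0.15, edgeR adjusted p = 6.79e-06). Casp6, an executioner caspase, and Cflar, an inhibitor of caspase-8, were lower too, at -1.29 and -1.65.

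In interneuron-like minus progenitor-like cells, edgeR called 52.8% of all genes, 3057 higher and 3145 lower. There, 7 of 15 JNK, FoxO and stress genes were higher and 5 lower, and 3 of 8 death receptor genes were higher and 2 lower. Of 9 other Bcl2 family genes 1 was higher and 2 lower, of 18 caspases and inhibitors 5 and 8, and of 19 p53 response genes 3 and 6. Map3k12, the DLK kinase that drives JNK signalling in stressed neurons, averaged 98.5 ± 14.4 CPM in interneuron-like and 31.1 ± 4.86 CPM in progenitor-like cells (log2 fold change 1.73, SE 0.13, edgeR adjusted p = 1.23e-12), and its relative Map3k13 was higher by 1.81. Foxo1 was lower at 4.67 ± 0.902 against 24.8 ± 2.78 CPM. Unc5c, a netrin receptor of the dependence receptor kind, averaged 565 ± 50.5 against 144 ± 26.4 CPM (2.08, SE 0.11, edgeR adjusted p = 2.9e-16). Among genes whose products bind the family, 4 of 16 were higher and 4 lower. Itpr1, the calcium channel that Bcl2 binds and a marker of mature Purkinje cells, was lower than in progenitor-like cells in both neuron classes, at 14.5 ± 17.4 CPM in Purkinje-like and 6.57 ± 2.69 CPM in interneuron-like cells against 31.4 ± 1.5 CPM.

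Set directly against interneuron-like cells, Purkinje-like cells had lower Map3k12 (33.8 ± 15.6 against 98.5 ± 14.4 CPM, log2 fold change -1.26, SE 0.17, edgeR adjusted p = 5.58e-07), lower Trp53 (49.0 ± 6.53 against 79.1 ± 17.5 CPM, -0.65) and lower Unc5c (-1.17). In this contrast, where 22.4% of all genes were called, 0 of 15 JNK, FoxO and stress genes were higher and 4 lower, and of 19 p53 response genes 1 was higher and 3 lower. Of 18 caspases and inhibitors 1 was higher and 0 lower, and of 8 death receptor genes 1 was higher and 2 lower. Of 9 other Bcl2 family genes and of 16 genes whose products bind the family, 0 were higher and 1 lower in each list. EdgeR called 0 genes of the 6 lists for genotype in each of the 4 sums, and DESeq2 called 0. At an unadjusted p under 0.05 edgeR had 5 of 101 of them in all cells (4.95%, against 4.61% of all genes) and 1 of 65 in Purkinje-like cells (1.54%, against 3.27%). It had 3 of 77 in interneuron-like cells (3.90%, against 3.18%) and 6 of 87 in progenitor-like cells (6.90%, against 5.90%). Those with the smallest unadjusted p included Birc2, an inhibitor of apoptosis, at 52.0 ± 2.65 CPM in En1/2 CKO and 78.3 ± 4.13 CPM in control libraries over all cells (-0.66, edgeR adjusted p = 0.955). Btg2, a p53 target on chromosome 1 and an intermediate progenitor marker, averaged 179 ± 1.20 against 72.1 ± 33.4 CPM (1.24, edgeR adjusted p = 0.955).

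Across the 8 classes, with levels averaged over the 4 libraries, the genes most alike to Bcl2 among 9851 were Erg28, Pias3 and Rhpn1 (Pearson r 0.994, 0.993 and 0.992). The closest to Bak1 was Krcc1 (0.991), to Bbc3 Plk3 (0.951) and Map1lc3b (0.948), and to Bcl2l11 Znrf2 (0.991) and Becn1 (0.983), whose product Beclin 1 binds Bcl2 proteins. Bcl2l1 had the weakest closest match, Nuak1 at 0.916. These correlations rest on 8 points that share libraries and depth, and describe only the order of classes.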

How the data were processed

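Sorted cells were sequenced with droplet 3′ chemistry, and the authors deposited UMI counts per gene and barcode for each library, made with Cell Ranger 6.1.0 on mm10 per the submitters' processing notes. Whether intronic reads were counted is not given in the sources used here. Barcodes were kept from 500 genes upward where mitochondrial UMIs did not exceed 10%, and those with the highest Scrublet scores were removed as doublets, 0.8% per 1000 barcodes. Cells were clustered with scanpy 1.11.5 on 2000 variable genes, 30 principal components and 15 neighbours at Leiden resolution 1, without the members, the wider lists, En1, En2 and TdTom. A cluster was named where at least 3 markers of a list, including 1 of its first 3, were raised 1.5-fold. Where several lists qualified, the one with the most markers among the 10 leading genes of the cluster gave the name. Counts were summed per library and class and tested with edgeR 4.0.16 (TMM, low counts removed by filterByExpr, 2-sided quasi-likelihood test, adjusted after Benjamini-Hochberg with a threshold of 0.05), with the library as a block between classes, and with DESeq2 1.42.0 as an alternative. The SE comes from the F statistic, and 95% intervals use the t distribution with the fit's degrees of freedom. The code was tested on simulated data. Members and lists were chosen with earlier results of these data known. Named list genes were up to 4 per list and contrast past the threshold with the largest change and at least 20 CPM in either class, or the 2 with the smallest p where none passed. Replicate numbers were not used to pair the libraries, since the labels do not say that they mark a shared litter or day. Same-numbered deviations had correlations from -0.46 to 0.02, which cannot exclude such a pairing with 2 libraries per genotype. One promoter and the proteins are not shown here.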

Additional observations from a re-analysis of the deposited data

How the results depend on the processing

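Bcl2 and Hrk in both neuron contrasts, Mcl1 in Purkinje-like minus progenitor-like cells and Bak1 in interneuron-like minus progenitor-like cells kept direction and call in every alternative that tested them, with Bcl2 between -1.68 and -1.28 in Purkinje-like and between -1.88 and -1.52 in interneuron-like cells. Hrk passed the low-count filter in 9 of 13 alternatives. Its counts lay mostly in progenitor-like cells, so its direction in those alternatives is no separate support. Other counts of members moved, and the cause was not tested. The number of members tested in each alternative is not listed here, and calls among all genes moved too. After thinning, 2 members were called in interneuron-like minus progenitor-like cells, against 6 in the fit as reported. Of all genes, 2031 were then higher and 2129 lower of 9681 tested, against 3057 and 3145 of 11756 as reported. In Purkinje-like minus interneuron-like cells 2 were called as reported, 1 with DESeq2, the stricter cell filter, doublets kept or at least 2000 UMIs, 0 after thinning or without the library block, 1 to 2 with a library left out, and 3 at Leiden resolution 2, where Bbc3 was added at -0.64 (edgeR adjusted p = 0.0344). Of all genes there, 1498 were higher and 1136 lower of 11756 as reported, and 1318 and 920 with DESeq2. They were 886 and 739 of 10045 with the stricter filter and 1524 and 1118 of 11978 with doublets kept. With at least 2000 UMIs they were 864 and 630 of 8846, and after thinning 824 and 517 of 9681. Without the library block they were 912 and 495 of 11362, against 1692 and 1600 of 12151 at Leiden resolution 2. In microglia-like minus interneuron-like cells 1 was called after thinning, where fewer genes and cells are tested, and 3 to 5 with a library left out. After thinning, 1153 of all 3885 genes tested were higher and 1242 lower, against 3076 and 2729 of 9022 as reported. With a library left out they ranged from 1940 and 2143 of 7087 to 3240 and 3275 of 10867. Over the mitochondrial limit 2 were called as reported, 0 with DESeq2, 1 without the low-count filter, and 0 to 4 with a library left out. For genotype, fits with a library left out rest on a lone library of 1 genotype, so that calls of members in them are not read here.

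Bak1 in Purkinje-like minus progenitor-like cells was at -0.88 (edgeR adjusted p = 0.0749) after thinning, and Bcl2 in microglia-like minus interneuron-like cells ranged from -1.68 to -0.36. At Leiden resolution 2 Bcl2l2 and Bcl2l11 also passed in interneuron-like minus progenitor-like cells at 0.57 and 0.42, and after thinning Bcl2l2 passed in Purkinje-like minus progenitor-like cells at 1.03.

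Of all genes, DESeq2 called 48 for genotype in all cells, 2 in Purkinje-like cells, 1 in interneuron-like cells and 3 in progenitor-like cells, against 0, 2, 0 and 0 with edgeR, and 1 against 22 for the interaction. Without control replicate 1 the genotype counts were 1139, 235, 519 and 1281, and without control replicate 2 they were 2581, 204, 1352 and 2651, fits in which the lone control is assumed to vary like the mutants. With at least 2000 UMIs the counts were 3829 in Purkinje-like and 3719 in interneuron-like minus progenitor-like cells, against 6246 and 6202. In Purkinje-like minus interneuron-like cells the count was 2634 as reported, 1625 with the stricter filter, 1341 after thinning, 1494 with at least 2000 UMIs, 1407 without the library block, and 1720 and 1563 without En1/2 CKO replicates 1 and 2. Thinning left 2395 of 5805 in microglia-like minus interneuron-like cells. Over the mitochondrial limit DESeq2 gave 2927 against 5510, and leaving out En1/2 CKO replicates 1 and 2 gave 2469 and 3221. Without the low-count filter the genotype count was 19 in Purkinje-like and 105 in progenitor-like cells. The interaction count was 8 with the stricter filter, 12 with doublets kept, 2 after thinning, 4 with at least 2000 UMIs and 2 to 53 with a library left out.

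With the replicate block, the replicate number as a term, 101 genes were called for genotype in all cells, 9 in Purkinje-like cells, 0 in the other 2 sums, and 0 members. A crossed pairing, chosen after seeing the data, called 0, 4, 16 and 17 genes. The mitochondrial limit of 20% could not be fitted, since control replicate 1 has 0 such barcodes. Depth limits Pmaip1 and Hrk most, and control replicate 2, with 27 Purkinje-like cells, limits that class.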

Other observations

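Classes outside the Ptf1a neuron series were described by level only. In granule lineage-like cells, which arise from the rhombic lip and not from the Ptf1a domain, Bcl2 stood at 39.7 and 47.0 CPM in En1/2 CKO and 68.9 and 54.9 CPM in control libraries, with both En1/2 CKO libraries below both controls. Bbc3 lay on the other side there, at 24.6 and 28.7 CPM in En1/2 CKO and 17.6 and 11 CPM in control libraries. In cycling cells Bbc3 stood at 8.98 and 14.1 CPM in En1/2 CKO and 8.54 and 5.97 CPM in control libraries, and Mcl1 at 150 and 138 against 130 and 145 CPM. Neither class was tested by genotype, and these classes were singled out after their values were seen. A lack of overlap between 2 and 2 libraries is frequent even where genotype has no effect.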
